A study of Mus musculus with 4 samples.

Results

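The genes examined here are those of the interferon response and of antigen presentation by major histocompatibility complex (MHC) class I molecules, in mouse embryonic stem (ES) cells with and without SOCS3. They were taken from a list of 51 genes, and each gene was represented by the probe set that carried its symbol alone and had the highest mean over the 4 arrays. A probe set of this kind was found for 48 of the 51 genes, among 18193 genes so represented on the array. Isg15 and Psme2 were matched only by probe sets with several symbols and Ifi44 by none, so these 3 were not analysed here. Another 5 genes (Irf2, Ifit1, Mx1, Mx2 and Nlrc5) lay below the filter on dim probe sets, which left 43 members among the 12732 genes tested. The rule that picked them uses gene names and not measured values, although the list was drawn up with earlier results of these data known.

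Total RNA was compared between wildtype ES cells (2 arrays) and SOCS3 null ES cells (2 arrays). The labels name the genotype and the cell type, and give no clone, passage, strain, culture medium or added cytokine for either group. No label states whether both arrays of a genotype hold separate cultures, so every p-value rests on a spread between arrays that may be technical alone. The values are probe set intensities on a linear scale, and the number of arrays limits their precision. The array medians lay between 15.79 and 16.05, and an intensity near them is called dim. The targeted transcript read 3024 and 1884 in wildtype against 19.3 and 12.9 in SOCS3 null cells. Of 13 pluripotency markers 0 rose and 3 fell, beside 13.1% and 9.55% of all genes tested. The 3 were Dppa3, Fgf4 and Sox2, with log2 changes of -3.10, -1.29 and -1.01. Pou5f1 read between 10524 and 11675 on all 4 arrays.

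As background, interferons bind cell surface receptors whose JAK kinases phosphorylate STAT proteins, and these enter the nucleus and switch on genes for antiviral proteins and for antigen presentation. SOCS proteins bind such receptors or their kinases and limit the signal, SOCS3 chiefly at receptors that contain gp130, such as that for leukemia inhibitory factor. In antigen presentation the immunoproteasome cuts proteins into peptides, the TAP transporter moves them into the endoplasmic reticulum, tapasin holds an empty class I molecule next to the transporter, and the class I heavy chain with beta-2-microglobulin carries the peptide to the surface. Undifferentiated ES cells are known for low levels of class I molecules and for a weak interferon response.

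Promoter stretches are shown first for members whose behaviour is described below, because each carries, or in 1 case lacks, the letters that interferon-responsive factors are known to bind. They come from RefSeq, build GRCm38.p6, and each stretch of 120 bases lies within the 250 bases before an annotated start and is written 5′ to 3′ on the strand of the gene. Capitals mark matches to GAAANNGAAA (the core of the interferon-stimulated response element), to its closer-spaced form GAANNGAAA, or to TTCNNNGAA (the core of the STAT-binding GAS element), each searched on both strands. The H2-D1 stretch is chr17:35262888-35263007 (+), that of H2-K1 chr17:34000374-34000493 (-), that of B2m chr2:122147493-122147612 (+), that of Bst2 chr8:71537538-71537657 (-), that of Oas1a chr5:120907526-120907645 (-) and that of Irf1 chr11:53769868-53769987 (+).
H2-D1: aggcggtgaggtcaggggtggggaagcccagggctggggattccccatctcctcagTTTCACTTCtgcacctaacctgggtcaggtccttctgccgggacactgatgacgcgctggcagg
H2-K1: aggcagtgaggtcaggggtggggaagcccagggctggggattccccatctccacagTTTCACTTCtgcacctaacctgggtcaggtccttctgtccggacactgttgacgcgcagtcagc
B2m: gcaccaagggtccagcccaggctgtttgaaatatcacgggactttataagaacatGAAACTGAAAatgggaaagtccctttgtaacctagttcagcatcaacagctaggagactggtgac
Bst2: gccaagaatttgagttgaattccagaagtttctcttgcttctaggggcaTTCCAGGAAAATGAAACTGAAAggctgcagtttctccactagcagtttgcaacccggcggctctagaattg
Oas1a: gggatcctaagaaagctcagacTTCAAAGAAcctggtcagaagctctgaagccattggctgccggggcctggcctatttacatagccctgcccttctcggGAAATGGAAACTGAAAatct
Irf1: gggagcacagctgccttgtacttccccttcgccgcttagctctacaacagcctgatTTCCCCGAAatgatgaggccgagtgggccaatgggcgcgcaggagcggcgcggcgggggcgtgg
The H2-D1 and H2-K1 stretches hold the same bases at 112 of 120 positions (93.3%), including the match. In Bst2 and Oas1a matches overlap one another. Tap1 and Psmb9 lie head to head in the RefSeq table, and the 225 bases between their starts (chr17:34187331-34187555, written on the strand of Tap1) hold none of the 3 motifs.
Tap1 and Psmb9: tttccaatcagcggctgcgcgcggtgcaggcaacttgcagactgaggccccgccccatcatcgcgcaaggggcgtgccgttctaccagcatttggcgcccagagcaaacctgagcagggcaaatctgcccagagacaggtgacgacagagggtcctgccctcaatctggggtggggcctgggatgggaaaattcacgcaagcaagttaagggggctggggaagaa

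The promoter table held 41 of the 51 genes. GAAANNGAAA was found before 11 of these 41 (26.8%) and before 3.46% of all 27025 genes in the table, GAANNGAAA before 6 (14.6%, against 7.30%) and TTCNNNGAA before 8 (19.5%, against 8.13%). Among the members that rose and had a promoter, 2 of 8 held GAAANNGAAA (B2m and Bst2), as did 6 of the 27 tested members that did not pass. These are matches of letters, not sites shown to be bound.

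Tap1, Tapbp, Psmb9, B2m and H2-D1, all of antigen presentation, rose in SOCS3 null cells, Irf1 fell, and 18 of the 20 antiviral effectors tested did not pass. Of the 43 members tested 9 rose, 1 fell and 33 did not pass, at a Benjamini-Hochberg adjusted p under 0.05 by limma over all genes. Without Usp18, which entered the test through the SOCS3 null arrays alone, 8 rose. Among all genes tested 22.7% were called, 13.1% higher and 9.55% lower. With both directions together the members' share of calls was close to this background. By direction, the share that rose was larger and the share that fell smaller than among all genes, which was not tested. The median log2 change of the members tested was 0.13, and that of all genes tested was 0.00. Of the genes for peptide supply, transport, loading and the class I molecule 5 of 10 tested rose and 0 fell, against 4 and 1 of 33 in the other roles. The difference between these shares was not tested. With any 1 array left out limma called 0 of all genes, while 8 to 20 of the 43 members, and 23% to 37.2% of all genes, had an unadjusted p under 0.05. In cultures such as these, more transcript per cell and more cells that make it cannot be told apart.

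**Figure D1:**
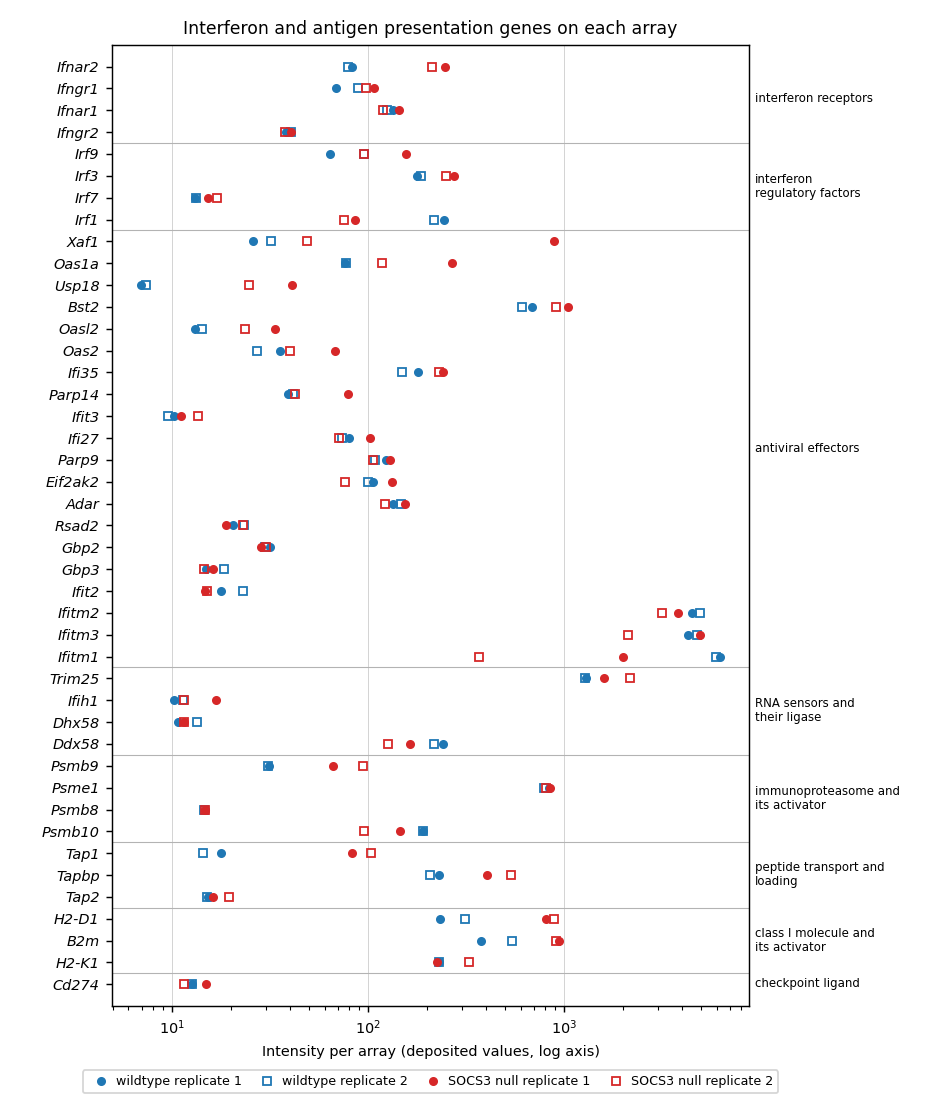
Intensity of each tested member on each of the 4 arrays (log axis), grouped by role; blue is wildtype, red SOCS3 null, circles replicate 1 and squares replicate 2. The red symbols of Tap1, Tapbp, H2-D1 and B2m lie above both blue ones, those of Irf1 lie below, and those of Xaf1, Ifitm1 and Oas1a lie far apart from each other.

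Tap1 encodes a subunit of the peptide transporter. Its intensity was 17.9 and 14.5 in wildtype against 83.2 and 103.9 in SOCS3 null cells. The genotypes did not overlap, with means of 16.2 ± 2.42 and 93.6 ± 14.6 (SD, n = 2). The log2 change was 1.76 (SE 0.13, limma adjusted p = 0.00790), from a wildtype level near the array medians, and it ran from 0.97 to 2.46 with pseudocounts of 64 and 1. The 3 other Tap1 probe sets read at most 9.79 and were not tested. Tap2, for the partner subunit, read 15.2 and 15.2 against 16.2 and 19.5 (log2 change 0.12, adjusted p = 0.418), so both wildtype values and 1 SOCS3 null value were dim.

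Tapbp, the gene for tapasin, read 231 and 208 in wildtype against 403 and 533 in SOCS3 null cells. It rose by 1.03 (SE 0.17, limma adjusted p = 0.0268), and its second probe set changed by 1.07 (adjusted p = 0.0307 over all probe sets). Neither probe set overlapped between the genotypes.

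Of the immunoproteasome genes, Psmb9, for an inducible catalytic subunit, read 31.1 and 30.8 in wildtype against 66.2 and 94.7 in SOCS3 null cells, a rise of 1.02 (SE 0.17, limma adjusted p = 0.0291). Psmb9 and Tap1, which share the bases between their starts shown above, both rose, and a part of these bases in that was not tested. Psmb8, for another inducible subunit, was dim on all arrays at 14.6 to 14.8, with no separation of the genotypes. Psmb10, for the third inducible subunit, read 190 and 190 against 145 and 95.02, so both SOCS3 null values lay below wildtype, but its change of -0.62 did not pass (adjusted p = 0.113). Psme1, for a subunit of the proteasome activator, read 784 to 842 on all arrays (log2 change 0.02, adjusted p = 0.906). Of the immunoproteasome genes tested, Psmb9 alone thus passed, and differences between these genes were not tested.

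H2-D1, a class I heavy chain gene, read 232 and 312 in wildtype against 807 and 886 in SOCS3 null cells. Its mean went from 272 ± 56.8 to 847 ± 55.7 (SD, n = 2), a rise of 1.60 (SE 0.17, limma adjusted p = 0.0124). Of its 5 tested probe sets 3 were called, with changes of 1.60, 1.498 and 1.01, and the others changed by 0.55 and -0.01. The last of these was dim, at 13.2 to 13.8 on every array. The names of all 3 called probe sets end in _x_at, which marks probes shared with other transcripts, and the tested probe set without that ending was the one that changed by 0.55 (adjusted p = 0.178 over all probe sets).

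B2m, for the light chain of every class I molecule, read 377 and 542 in wildtype against 939 and 903 in SOCS3 null cells, a rise of 1.00 (SE 0.20, limma adjusted p = 0.0398). Its second probe set, read at 365 and 498 against 841 and 810, changed by 0.93. With adjustment over all probe sets the first missed the threshold (adjusted p = 0.0532) and the second passed it (0.0475). The wildtype arrays differed from each other by 0.50 on the log2 scale for B2m and by 0.41 for H2-D1, more than the SOCS3 null arrays did.

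For H2-K1, the other classical heavy chain gene, the result depended on the probe set. The one with the highest mean on the log2 scale read 231 and 231 in wildtype against 223 and 328 in SOCS3 null cells, so the genotypes overlapped and its change of 0.22 did not pass (adjusted p = 0.498). Another probe set, with the higher mean on the linear scale, read 130 and 164 against 377 and 390, without overlap, and changed by 1.2996 (adjusted p = 0.0173 over all probe sets). Class I heavy chain genes are near copies of one another, and the names of these H2-K1 probe sets end in _x_at too. The values for H2-K1 and H2-D1 may therefore not belong to those genes alone. Nlrc5, for an activator of class I genes, read 4.80 to 5.39 on all arrays and was not tested.

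**Figure D2:**
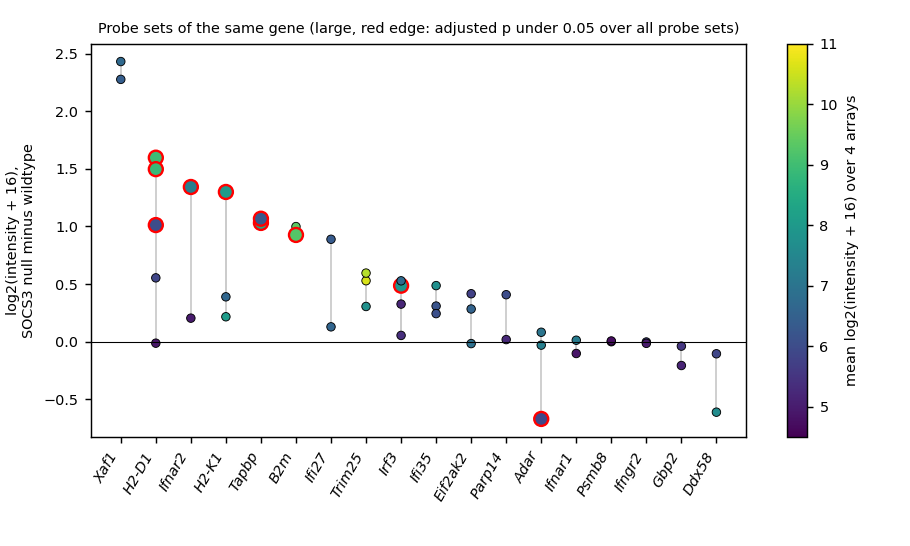
Log2 change (SOCS3 null minus wildtype) of every tested probe set for the 18 members that had more than 1; the colour gives the mean level over the 4 arrays, and large symbols with a red edge had an adjusted p under 0.05 over all probe sets. For 1 gene (Tapbp) every probe set was called, for 6 some were, and for 11 none was.

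The region around these genes was examined for its other genes. Tapbp, H2-K1, Psmb9, Tap1, Psmb8, Tap2 and H2-D1 lie in the MHC on chromosome 17, and Psmb9, Tap1, Psmb8 and Tap2 follow each other there. In the RefSeq order from Tapbp to H2-D1, 65 genes were tested, of which 13 rose and 5 fell. Without the 7 members, 9 of 58 rose and 5 fell, with a median of 0.13, beside the backgrounds of 13.1% and 9.55%. By the counts called, the genes outside the list were thus near the background. Their median of 0.13 lay above that of all genes tested (-0.005) and equalled that of the members tested (0.13). These differences were not tested. The largest increases among them were Clic1, for an intracellular chloride channel protein, with 2.09 and Sapcd1 with 2.07, both chosen after their values were seen. Psmb8 and Tap2 did not pass next to Psmb9 and Tap1, which did.

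**Figure D3:**
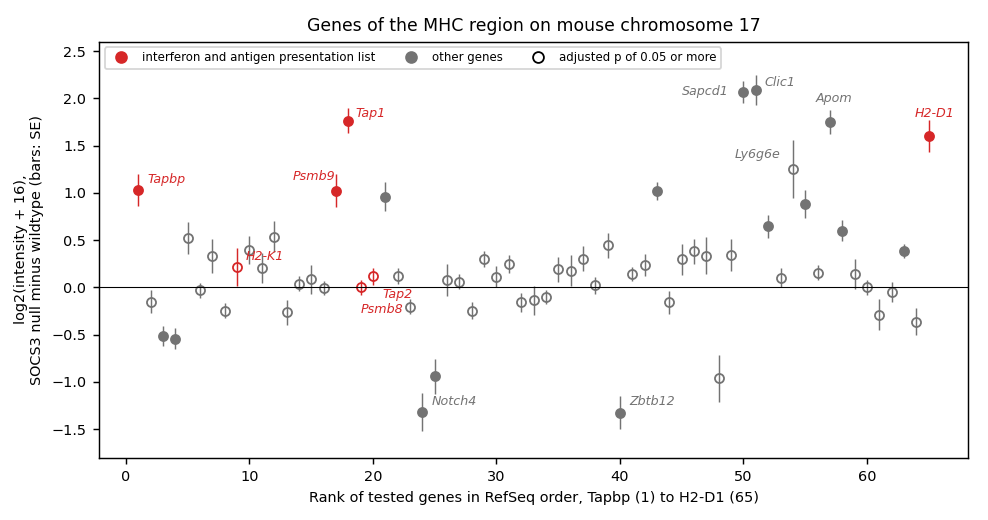
Log2 change (SOCS3 null minus wildtype, bars SE) of the 65 tested genes from Tapbp to H2-D1 in their order on chromosome 17, with the members in red and filled symbols for an adjusted p under 0.05. Genes that rose, fell or did not pass stand next to one another along the region.

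Of the interferon receptor genes 1 of 4 rose, beside 13.1% of all genes. Ifnar2, for a subunit of the type I interferon receptor, read 82.4 and 79.0 in wildtype against 248 and 212 in SOCS3 null cells. It rose by 1.34 (SE 0.11, limma adjusted p = 0.00867). Its second tested probe set, with readings of 9.76 to 21.5, changed by 0.20 (adjusted p = 0.520 over all probe sets). Ifnar1, for the other subunit, read 118 to 144 on all arrays without separating the genotypes (0.01, adjusted p = 0.958). Ifngr2, for a subunit of the interferon gamma receptor, read 37.9 to 40.4 on all arrays (adjusted p = 0.988). Ifngr1, for the subunit that binds interferon gamma, read 68.3 and 88.3 against 107 and 97.6 (0.34, adjusted p = 0.173). The gene next to Ifnar2 on chromosome 16, Il10rb, which encodes a receptor subunit for interleukin 10 and interferon lambda, also rose, by 1.24, from 28.9 and 28.1 to 92.2 and 86.5.

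The interferon regulatory factors moved both ways. Irf1, a transcription factor induced by interferon that acts on class I and TAP genes, was the only member that fell, from 243 and 216 to 85.8 and 74.99. Its log2 change was -1.35 (SE 0.11, limma adjusted p = 0.00871), and the SOCS3 null values lay far below both wildtype values. Irf3, the factor that RNA sensing activates, read 177 and 186 against 273 and 250 and rose by 0.49 (SE 0.09, limma adjusted p = 0.0351). That call was kept in 7 of 12 alternatives with all arrays, and the other 3 Irf3 probe sets changed by 0.53, 0.33 and 0.05 without a call. Irf9, the DNA-binding partner of the STATs, read 63.9 and 95.5 against 156 and 95.8, so that its highest wildtype value nearly met its lowest SOCS3 null value (0.56, adjusted p = 0.255). Irf7, the main amplifier of type I interferon production, was dim at 13.1 to 17.04 (0.14, adjusted p = 0.284).

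Of the antiviral effectors 2 of 20 tested rose and 0 fell, beside 13.1% and 9.55% of all genes, with a median change of 0.07. Bst2, for tetherin, which holds budding virus at the membrane, read 682 and 607 in wildtype against 1050 and 910 in SOCS3 null cells. It rose by 0.59 (SE 0.12, limma adjusted p = 0.0420). Usp18, for the protease that removes ISG15 from proteins and damps the type I receptor, read 6.98 and 7.35 against 40.9 and 24.8 and rose by 1.06 (SE 0.19, limma adjusted p = 0.0326). Its wildtype mean on the log2 scale, 4.53, was below the filter floor of 4.72, so it was tested only because of the SOCS3 null arrays, and its p supports nothing further here. Its change ran from 0.44 to 2.01 with pseudocounts of 64 and 1.

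Oas1a and Oas2, for enzymes that make the 2′,5′-linked messenger that activates RNase L, and Oasl2, for a related protein, read higher on both SOCS3 null arrays than in wildtype, and none passed. Oas1a read 76.7 and 77.5 in wildtype against 267 and 117 in SOCS3 null cells, a difference of 1.06 (SE 0.40, limma adjusted p = 0.143). Oas2 read 35.4 and 27.0 against 67.9 and 40.2 (0.55, adjusted p = 0.189). Oasl2 read 13.1 and 14.2 against 33.6 and 23.5 (0.58, adjusted p = 0.0605), and it was called in 3 of 11 alternatives that kept all arrays (adjusted p over its alternatives 0.0392 to 0.308). Oas3, a relative outside the member list named after its values were seen, fell by 0.47 from 23.9 and 25.6 to 12.2 and 14.6 (limma adjusted p = 0.0365). In Oas1a, Oas2 and Oasl2 SOCS3 null replicate 1 was the higher of its pair. Among all genes 32.3% had both SOCS3 null arrays above both wildtype arrays and 33.6% had them below, and among the members tested 22 and 6 of 43 did. The 22 include Usp18 and Ifit3, which entered the test through the SOCS3 null arrays alone.

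The IFITM proteins block virus entry at membranes. Ifitm1, also known from early germ cells, read 6218 and 5977 in wildtype against 2004 and 366 in SOCS3 null cells. Both SOCS3 null values lay below wildtype, but they were far from each other, and the difference of -2.80 (SE 0.86) did not pass (limma adjusted p = 0.0985; range over its alternatives 0.0311 to 0.396). With SOCS3 null replicate 1 left out the difference was -4.00 and with replicate 2 left out -1.60. Ifitm2 read 4508 and 4904 against 3820 and 3156 (-0.44, adjusted p = 0.0938). Ifitm3 read 4302 and 4762 against 4904 and 2123, so the genotypes overlapped (-0.49, adjusted p = 0.485). No IFITM gene passed, although these lie beside one another on chromosome 7 and their SOCS3 null replicate 2 values were the lowest of each gene.

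Xaf1, for an antagonist of an apoptosis inhibitor, had the largest positive difference of any member and no call. One probe set read 25.9 and 32.1 in wildtype against 889 and 48.8 in SOCS3 null cells, a difference of 2.43 (SE 1.37, limma adjusted p = 0.283). The second read 31.7 and 15.2 against 24.01 and 857. The high value thus stood on SOCS3 null replicate 1 for the first probe set and on replicate 2 for the second, so the 2 probe sets disagreed on which array was high.

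The other antiviral genes did not pass. Ifi35 read 179 and 149 against 241 and 229 (0.49, limma adjusted p = 0.0603). Parp14 read 39.1 and 41.4 against 79.3 and 42.5, high on SOCS3 null replicate 1 alone. Adar, which edits adenosine in double-stranded RNA, had a change of -0.03 on the probe set that stood for it, while another changed by -0.67 (adjusted p = 0.0400 over all probe sets), from 65.0 and 55.5 to 29.1 and 34.7. Eif2ak2, for the kinase PKR that halts translation, differed by -0.02 on the probe set that stood for it. The remaining effectors (Ifi27, Ifit2, Ifit3, Rsad2, Gbp2, Gbp3 and Parp9) differed by -0.23 to 0.13 on theirs. Other tested probe sets differed by 0.28 and 0.42 for Eif2ak2, 0.89 for Ifi27 and -0.21 for Gbp2, and none was called. That of Ifi27 read 42.1 and 44.5 in wildtype against 129 and 67.3 in SOCS3 null cells. Among the members tested 8 had means under 20 in both genotypes, and of the classical interferon-induced genes Ifit1, Mx1 and Mx2 read 6.26 to 10.6 on all arrays.

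None of the RNA sensor genes passed. Ddx58, for the sensor RIG-I, read 240 and 217 in wildtype against 164 and 126 in SOCS3 null cells, a difference of -0.61 (SE 0.15, limma adjusted p = 0.0618). Trim25, for the ubiquitin ligase that acts with RIG-I, went the other way, from 1289 and 1278 to 1588 and 2176 (0.53, adjusted p = 0.117). Ifih1 and Dhx58, for related sensors, were dim at 10.2 to 16.7, with changes of 0.16 and -0.03. The checkpoint ligand gene Cd274 was dim as well, at 11.6 to 14.9 (0.03, adjusted p = 0.871).

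**Figure D4:**
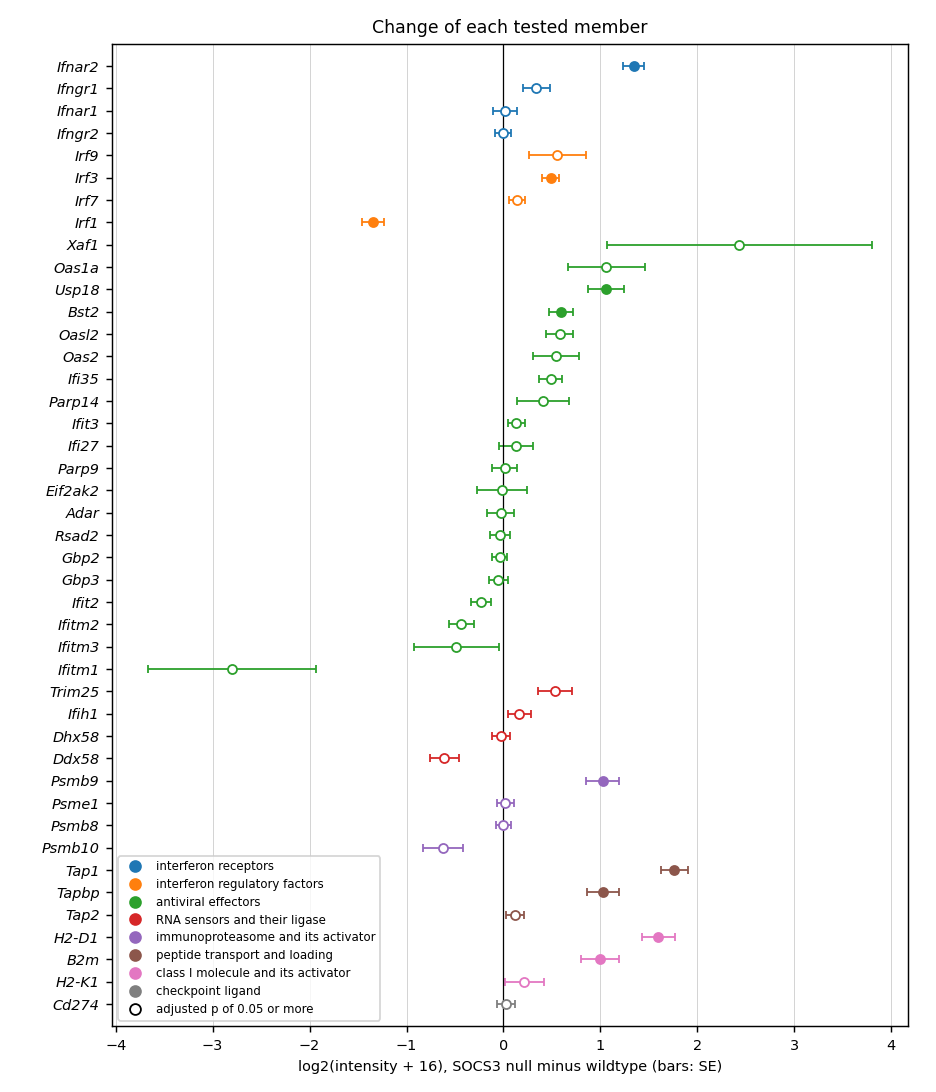
Log2 change (SOCS3 null minus wildtype) with its SE for the 43 tested members, coloured by role; filled symbols had a limma adjusted p under 0.05. The 9 members that rose changed by 0.49 to 1.76, Irf1 fell by 1.35, and the long bars of Xaf1 and Ifitm1 reflect the distance between the 2 SOCS3 null arrays.

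The distance between the 2 SOCS3 null arrays was also read for each member. SOCS3 null replicate 2 was lower than replicate 1 by more than 0.5 on the log2 scale for 9 of 43 members (20.9%), against 5.54% of all genes tested, and it was higher by more than 0.5 for 1 member (2.33%), against 4.73%. Of the 9, 8 were among the 33 members outside antigen presentation, or 24.2% of these (Ifitm1, Ifitm3, Oas1a, Oas2, Parp14, Eif2ak2, Irf9 and Xaf1). These counts use the probe set that stood for each gene. Other tested probe sets were higher on SOCS3 null replicate 2 than on replicate 1 for Xaf1 (857 against 24.01), Eif2ak2 (50.9 against 42.0) and Parp14 (24.9 against 20.2). Another of Eif2ak2 was lower (74.7 against 100). The other was Psmb10, 1 of 10 members of antigen presentation (10%). The wildtype arrays differed by more than 0.5 for 1 member, B2m. This pattern was described after the values were seen, and its cause was not tested.

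**Figure D5:**
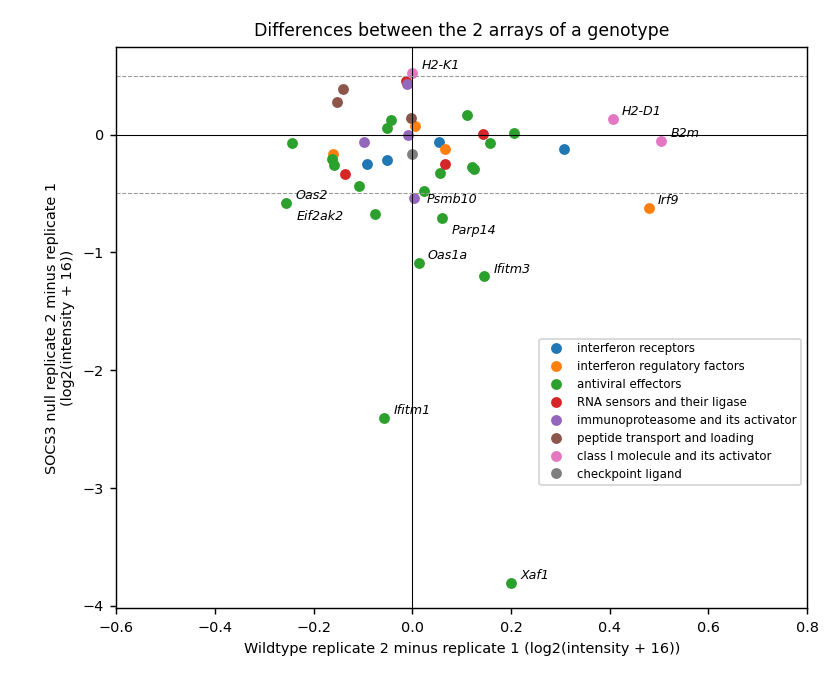
Difference between the 2 arrays of each genotype for the 43 tested members, wildtype on the horizontal and SOCS3 null on the vertical axis, both as log2(intensity + 16), with dashed lines at 0.5 and -0.5. Xaf1, Ifitm1, Ifitm3 and Oas1a lie lowest, while Tap1, Tapbp and H2-D1 lie above 0 on the vertical axis. Each gene is shown by the probe set that stood for it, and the second probe set of Xaf1 went the other way.

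Related genes gave the following counts, from lists drawn up with earlier results of these data known. Of 11 genes for interferons and linked cytokines that had a probe set 4 were tested and 0 passed (0 also had an unadjusted p under 0.05). Ifnb1 read 13.8 to 15.2, Ifng 5.83 to 5.95 and the chemokine gene Cxcl10, an interferon target, 20.8 to 24.5 over the 4 arrays. Of 14 tested genes for signalling from receptor to nucleus 4 rose and 2 fell, beside 13.1% and 9.55% of all genes. Socs3 was among those that fell. Il10rb rose, as did the kinases Jak2 by 0.83 (34.4 and 34.8 to 75.2 and 73.0) and Jak1 by 0.77, and Socs1, the inhibitor of interferon receptor kinases, by 1.32 from 10.5 and 10.04 to 67.7 and 35.5. Socs1 lay below the filter floor in wildtype and was tested only through the SOCS3 null arrays, and without it 3 rose. The phosphatase gene Ptpn6 fell by 0.87. Stat2 read 55.4 and 56.5 against 148 and 81.4 (0.81, limma adjusted p = 0.122), again higher on SOCS3 null replicate 1, and Tyk2 and Stat3 differed by 0.38 and 0.42 without passing.

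Of 28 further interferon-induced genes tested 6 rose and 3 fell, beside 13.1% and 9.55% of all genes, with a median of 0.22; Stat2 is in both lists. Without Ube2l6, which was below the floor in wildtype, 5 rose. Plscr1, for a phospholipid scramblase, rose by 2.86 from 222 and 215 to 1697 and 1672, the galectin gene Lgals9 by 1.56 and Ifi30, for a lysosomal thiol reductase of class II presentation, by 1.43. Pml, which organises nuclear bodies, fell by 1.44 from 481 and 566 to 187 and 179.

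Among 20 partners of peptide supply and class I loading 3 rose and 3 fell, beside 13.1% and 9.55% of all genes. The chaperone genes of the loading complex Pdia3 and Calr rose by 1.13 and 1.43 (Pdia3 from 3089 and 3115 to 6826 and 6822), as did Hspa5, a general chaperone of the endoplasmic reticulum, by 0.76. Psma7, a subunit of the constitutive proteasome, and Ide and Tpp2, which are peptidases, fell by 0.64, 0.73 and 0.37. Psmb5, Psmb6 and Psmb7, whose products the inducible subunits replace, differed by -0.07, -0.26 and -0.01 and did not pass.

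Of 17 other MHC genes and their regulators 2 rose and 1 fell, beside 13.1% and 9.55% of all genes. H2-Ab1, a class II gene, rose by 0.96 from 16.9 and 9.35 to 39.8 and 40.5, Nfya by 0.52, and Rfx5, a regulator of MHC promoters, fell by 0.70. The class II activator gene Ciita read 6.35 to 6.53 and the class II chaperone gene Cd74 10.7 to 14.6 on all arrays. Of 17 adaptors and kinases of nucleic acid sensing 4 rose and 0 fell, beside the same backgrounds. Myd88 rose by 2.22 (33.2 and 35.2 to 262 and 181) and Zc3hav1, for an antiviral RNA-binding protein, by 1.05. Rela, for a subunit of NF-kappaB, rose by 0.84 and Ticam1 by 0.61.

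Markers of other cell types were read beside these results. Among all genes tested 13.1% rose and 9.55% fell. Of 18 tested endoderm markers 16 rose and 0 fell (13 rose without Foxa2, Gata4 and Sox17, which were below the floor in wildtype), and their summed intensity was 3563 and 4022 in wildtype against 69062 and 71005 in SOCS3 null cells. Of 11 tested blood and macrophage markers 3 rose (Cdh5, Laptm5 and Cd68) and 0 fell, or 2 without Cdh5, which was below the floor in wildtype, with sums of 1254 and 1608 against 3248 and 2708, while Ptprc, which defines blood cells, read 5.66 to 6.24 and Itgam 7.06 to 7.55 on all arrays. Of 12 tested fibroblast and feeder markers 0 passed, with sums of 7393 and 9819 against 9651 and 6115. The part of the endoderm and blood markers in the rise of the antigen presentation genes was not tested.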

How the data were processed

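The deposited values are probe set intensity values, 45101 per array on 4 arrays; how the authors summarised and normalized them is not stated in the sources at hand. On 8945 probe sets (19.8%) 2 or more arrays hold the same deposited value, so some SDs are 0 or too small; among the 43 members tested this holds for 1 (Cd274). All columns were taken through the labels. Symbols came from the platform annotation (34945 probe sets with 1 symbol, 932 with several, 9160 with none, 64 controls left out), and all 48 members with a probe set were found in the GRCm38.p6 gene table by gene ID.

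Values were used as log2(intensity + 16), which understates changes of dim genes, without further scaling. Probe sets whose mean log2 value reached the 40th percentile (4.72) were kept, which left 27022. The probe set with the highest mean log2 value stood for its gene. Genotypes were compared with limma 3.58.1 (lmFit, eBayes, two-sided) in R 4.3.3 over 12732 genes, and calls used a Benjamini-Hochberg adjusted p under 0.05. A filter on the mean of both groups lets a member pass through 1 group alone (Usp18 and Ifit3, whose wildtype means lay below it). The procedure was run on simulated data with independent noise and far fewer changed genes than were called here. That run cannot show how it performs on these data. Changes are SOCS3 null minus wildtype; intensities are means ± SD, n = 2.

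All members are reported by role; of the 6 related pathway lists, the 4 called genes with the smallest p and Stat2, Stat3, Jak1, Jak2, Tyk2 and Socs1 are named, but no rule was set for the cell type markers (a further item of this rule is not reported here), and others were chosen after their values were seen. The members and lists were chosen with earlier results of these data known, so no test of a list as a whole was run. Motifs were searched in the 250 bases before each start in Python 3.11.15; figures were drawn with matplotlib 3.10.9. Same-numbered arrays had deviations from their group means that correlated at -0.12 over genes. With so few arrays this value cannot exclude a pairing, and the main fit used none.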

Additional observations from a re-analysis of the deposited data

How the results depend on the processing

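The counts of 9 higher and 1 lower members stood beside 2888 genes called in all. Without the filter 3 members were higher, and 1631 genes were called. With the replicate number as a block 5 were higher and 1914 genes were called; with the numbers crossed, chosen after seeing the data, the counts were 8 higher, 1 lower and 2817. With quantile normalization 2 members were lower, and a filter at the 60th percentile gave 3 lower (Irf1, Ifitm1 and Ddx58). With an array left out the higher members ran from 0 to 0, the lower from 0 to 0 and all genes called from 0 to 0. In those fits the lone array of a genotype is assumed to vary like the other genotype's 2; 5 of the 10 called members (Irf1, Irf3, Tap1, H2-D1 and Ifnar2) had an unadjusted p under 0.05 all 4 times, as a description. The members' median of 0.13 was 0.23 and 0.055 with pseudocounts of 1 and 64, 0.37 at the 60th percentile, and 0.056 to 0.14 with an array left out. With all arrays kept, Irf1, Tap1, H2-D1 and Ifnar2 were called in all 12 alternatives. None of the 10 called members changed sign in any alternative run, whereas 14 of the 33 uncalled members did in at least 1, Ifitm3 and H2-K1 among them. For each called member the arrays of the genotypes did not overlap. Leaving out an array could thus not change its sign, so this contrast adds no support for the calls. In the probe set rule by linear mean, chosen after seeing the data, H2-K1 was called as well. Dim wildtype levels limit the size of the changes of Tap1 and Usp18.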
